A study of Homo sapiens with 18 samples.

Results

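The respiratory chain subunits encoded in the nucleus were taken from the deposited expression table by name: genes beginning NDUFA, NDUFB, NDUFC, NDUFS or NDUFV and a digit, SDHA to SDHD, and those beginning UQCR, COX4 to COX8 or ATP5 and a letter. The names matched 93 genes, of which 2 pseudogenes (ATP5EP2 and UQCRBP1) were left out. Of the remaining 91, the 82 with at least 1 RPKM in at least 3 libraries are the members described here, out of 12900 genes past that filter and 26443 in the table. RPKM is a read count scaled to gene length and library depth, so levels can be set side by side between genes. The members held 38 genes named for complex I (NDUFA4 and NDUFA4L2 are counted there by name), 4 for complex II, 9 for complex III, 12 for complex IV and 15 for complex V. The other 4 were the antisense RNAs NDUFV2-AS1 and NDUFB2-AS1 and the genes ATP5S and ATP5SL, which do not encode subunits of complex V. Names and positions follow the table and GENCODE 29 on hg38, in which all 82 were found.

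The respiratory chain passes electrons from NADH through complex I, or from succinate through complex II, to complex III, cytochrome c and complex IV, where oxygen is reduced. Complexes I, III and IV pump protons across the inner mitochondrial membrane, and complex V, the ATP synthase, uses their return to make ATP. Under low oxygen, HIF1A turns on glycolysis, diverts pyruvate from mitochondria through PDK1 and exchanges a few chain subunits, with NDUFA4L2 and COX4I2 the best known HIF-induced forms.

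RNA was sequenced from the human prostate cancer line LNCaP in 6 groups of 3 libraries. Cells carried a lentivirus for 5 days: the vector pGIPZ as control, an shRNA that targets HIF1A (shHIF1A), one that targets FOXA1 (shFOXA1), or both shRNAs (shFOXA1+shHIF1A). The other groups were pGIPZ and shFOXA1 cells given 40 µM KC7F2, an inhibitor of HIF1A, for 24 h (pGIPZ+KC7F2 and shFOXA1+KC7F2). All 18 cultures, controls included, also received 100 µM CoCl2 for 24 h, which stabilises HIF1A protein as hypoxia does. The labels speak of triplicates without saying that they were separate cultures, so p-values measure only the spread between these libraries. Because these are whole cultures, fewer cells of one kind and less RNA per cell cannot be told apart.

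FOXA1, the pioneer factor targeted by shFOXA1, was at 71.6, 114 and 107 RPKM in pGIPZ and 35.1, 32.4 and 34.8 in shFOXA1. It was at 118 to 123 RPKM in shHIF1A and 70.7, 63.5 and 59.3 in shFOXA1+shHIF1A. HIF1A was at 13.96, 27.3 and 28.0 RPKM in pGIPZ, 3.06, 4.28 and 3.33 in shHIF1A, 88.6, 81.6 and 99.5 in shFOXA1, and 4.33, 4.07 and 4.56 with both shRNAs. Both knockdowns were thus visible against the matching groups without that shRNA. Against pGIPZ, however, the highest FOXA1 value with both shRNAs (70.7) lay just under the lowest control (71.6). HIF1A RNA was higher under shFOXA1, and FOXA1 was depleted less with both shRNAs than with shFOXA1 alone. The 8 LNCaP and luminal prostate markers examined were present in all 18 libraries. Of 9 markers of other cells, KRT5 was at 0 in all 18 libraries, PTPRC, CD3E, COL1A2 and TP63 in 15 to 17, and PECAM1 in 11. VWF (0.310 to 2.72 RPKM) and COL1A1 (1.64 to 7.28 RPKM) were above 0 in all 18. The summed level of the 9 was 8.82 to 10.1 RPKM in pGIPZ and 20.8 to 21.6 in shFOXA1, CD68 alone ran from 3.57 to 19.3 over all libraries, and the part of these RNAs in the results was not tested. Recovered library depth ran from 3.26 to 12.1 M reads, with the shallowest library among those with both shRNAs. Mean depth was 11.1 M reads in pGIPZ, 10.8 in shHIF1A and 11.0 in pGIPZ+KC7F2. With the FOXA1 shRNA added to each it was 6.33, 6.06 and 8.22 M, and no such pair of groups overlapped. Every FOXA1 knockdown comparison thus sets shallower against deeper libraries, and the part of depth in the results was not tested.

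3 promoters are shown for the genes on which the results turn: NDUFA4L2, a form of NDUFA4 induced by HIF1A; NDUFA4 itself, which sits in complex IV despite its name; and SDHA, the flavoprotein of complex II that oxidises succinate. Each is the 250 bases before the RefSeq start (GRCh38.p14): chr12:57240763-57241012, minus strand, for NDUFA4L2; chr7:10940154-10940403, minus strand, for NDUFA4; and chr5:218070-218319, plus strand, for SDHA. Capitals mark letters that match the HIF core (ACGTG or GCGTG), the ETS core read by GABPA (CCGGAA), the NRF1 consensus or the YY1 motif (AANATGGCG), on either strand; overlapping matches were allowed.
NDUFA4L2: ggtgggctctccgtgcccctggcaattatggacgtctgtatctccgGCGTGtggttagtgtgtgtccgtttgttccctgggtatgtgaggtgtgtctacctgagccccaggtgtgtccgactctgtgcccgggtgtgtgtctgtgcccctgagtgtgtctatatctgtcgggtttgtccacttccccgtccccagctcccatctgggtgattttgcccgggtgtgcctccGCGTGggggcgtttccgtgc
NDUFA4: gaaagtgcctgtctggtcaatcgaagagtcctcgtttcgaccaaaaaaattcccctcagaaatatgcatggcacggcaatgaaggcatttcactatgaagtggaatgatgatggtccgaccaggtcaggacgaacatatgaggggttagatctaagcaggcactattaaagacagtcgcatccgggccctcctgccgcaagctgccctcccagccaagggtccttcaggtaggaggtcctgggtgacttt
SDHA: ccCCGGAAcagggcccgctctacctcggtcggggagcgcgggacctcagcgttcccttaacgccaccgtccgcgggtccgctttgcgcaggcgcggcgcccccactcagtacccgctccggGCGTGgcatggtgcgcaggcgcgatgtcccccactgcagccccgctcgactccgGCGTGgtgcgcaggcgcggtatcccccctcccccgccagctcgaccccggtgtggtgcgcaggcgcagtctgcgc
NDUFA4L2 held 2 matches to the HIF core, at -204 and -20 from the start, and none to the other motifs. SDHA held 1 match to the ETS core and 2 to the HIF core, whereas the letters searched were not found in this window of NDUFA4.

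Across the chain, 65 of the 78 subunit genes were matched to a RefSeq promoter of 300 bases, 250 before and 50 after the start. The ETS core, bound by GABPA, was found in 27 of the 65 (41.5%) and in 17.6% of all 27305 promoters. The NRF1 consensus was in 6 (9.23%, against 1.59%), and the YY1 motif was in 16 (24.6%, against 3.37%). The site of the estrogen-related receptor, AAGGTCA, was in 8 (12.3%, against 3.97%), the HIF core in 39 (60%, against 48.4%) and the forkhead motif TGTTTAC in 0 (against 3.41%). Matches to the 3 factors best known for respiratory genes were thus more frequent in the members than in promoters at large, while the HIF core is short and common in promoters at large. The promoters at large were not matched to the members for expression or base composition. These are letter matches in a window and not measured sites.

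LNCaP expressed each complex at a high level. Mean RPKM over the 18 libraries was highest for ATP5B, the catalytic beta subunit of complex V (537), COX7C (529) and COX4I1 (517), both of complex IV. In complex I the range ran from NDUFS5 (293) to NDUFA5 (6.92), and in complex III from UQCRH, the hinge protein (181), to its intronless copy UQCRHL (5.38). Complex II was the lowest, from SDHB, the iron-sulfur subunit (45.2), to the membrane anchor SDHD (19.5). Complex V ended at ATP5J (42.4). Reads of close copies such as UQCRH and UQCRHL, or SDHA and its pseudogenes, may have been split between them, and without strand information reads of an antisense RNA cannot be told from those of its partner.

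A single form of each tissue-specific pair dominated. COX4I2, the oxygen-regulated partner of COX4I1, was listed at 0 in all 18 libraries. The muscle forms COX6A2 and COX7A1 averaged 0.0718 and 0.400 RPKM, against 146 for COX6A1 and 223 for COX7A2. The testis forms COX6B2 and COX8C averaged 0.113 and 0.0132 RPKM, against 256 for COX6B1 and 358 for COX8A. COX7B2 passed the filter at 1.47 RPKM, against 204 for COX7B, and COX7A2L, a factor that joins complexes III and IV, was at 80.7. The names below the filter also held NDUFC2-KCTD14, ATP5J2-PTCD1, NDUFA6-AS1 and ATP5L2.

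NDUFA4L2 (chromosome 12, 57234903 to 57240715, minus strand) was called in 7 of the 9 comparisons, more than any other member. It was at 32.0, 29.5 and 26.6 RPKM in pGIPZ, 25.4, 19.7 and 14.96 in shHIF1A, and 48.1, 48.9 and 41.7 in shFOXA1. With both shRNAs it was at 15.5, 13.5 and 7.39 RPKM, with pGIPZ+KC7F2 at 17.3, 15.4 and 12.2, and with shFOXA1+KC7F2 at 28.9, 23.6 and 26.4. The shFOXA1 libraries lay above all 15 others, and shFOXA1+shHIF1A did not overlap pGIPZ or shFOXA1. These values rest on about 59.4 to 436 reads per library.

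Adding the HIF1A shRNA to FOXA1 knockdown lowered NDUFA4L2 to 25.9% of its level (log2 difference -1.95 ± 0.22 SE, adjusted p = 4.39e-06 in limma). That call held under all 17 alternatives tried, with adjusted p up to 0.00275. FOXA1 knockdown changed NDUFA4L2 in opposite directions by HIF1A state: the difference was 0.65 ± 0.22 against pGIPZ (adjusted p = 0.0446) and -0.73 ± 0.22 against shHIF1A (adjusted p = 0.0360). The interaction itself was -1.38 ± 0.31 (adjusted p = 0.0127) and held under all 23 alternatives, with adjusted p up to 0.0376. NDUFA4L2 was the single member called in that interaction, in which 3.16% of all genes were called higher and 4.45% lower. Median-ratio scaling gave 1 member higher and 1 lower, quantile normalisation 3 and 1, and leaving out pGIPZ 3 or shHIF1A 1 gave 5 and 2 members in all. FOXA1 depletion was weaker with both shRNAs, and its part in the interaction was not tested.

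The single-factor differences of NDUFA4L2 were closer to the threshold. HIF1A knockdown alone gave -0.57 ± 0.22 (adjusted p = 0.0496), and KC7F2 alone gave -0.96 ± 0.22 (adjusted p = 0.0328). KC7F2 on top of FOXA1 knockdown gave -0.80 ± 0.22 (adjusted p = 0.0547), and FOXA1 knockdown within KC7F2 gave 0.81 ± 0.22 (adjusted p = 0.0112). The first and second held in 8 of 17 alternatives each, the rise against pGIPZ in 9 of 17, the fall against shHIF1A in 12 of 17 and the rise within KC7F2 in 15 of 17. Leaving out single libraries of the groups compared kept the call of HIF1A knockdown alone in 1 of 6 fits and of KC7F2 alone in 0 of 6. It kept the rise against pGIPZ in 0 of 6, the fall against shHIF1A in 3 of 6 and the rise within KC7F2 in 5 of 6. The difference of FOXA1 knockdown between cells with and without KC7F2 was 0.16 ± 0.31 (adjusted p = 0.967).

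Over the groups without KC7F2, the means of genes of the switch away from respiration were ordered likewise. PDK1, the kinase that shuts pyruvate dehydrogenase, was at 11.3 to 12.1 RPKM in pGIPZ, 3.95 to 4.08 in shHIF1A, 16.2 to 19.0 in shFOXA1 and 2.30 to 3.11 with both shRNAs. LDHA, which makes lactate, was at 178 to 213, 53.1 to 66.4, 342 to 361 and 50.4 to 65.8 RPKM in the same order. In both genes, as in NDUFA4L2, shFOXA1 was the highest of these groups. LDHA did not differ between shHIF1A and both shRNAs (-0.08 ± 0.11, adjusted p = 0.710 in limma). With KC7F2 the likeness held in part. In shFOXA1+KC7F2, PDK1 was at 10.3 to 10.9 RPKM and LDHA at 220 to 229. These lay below shFOXA1 and above pGIPZ+KC7F2, as in NDUFA4L2. The order against shHIF1A was not shared. In pGIPZ+KC7F2, PDK1 was at 8.11 to 8.93 RPKM and LDHA at 157 to 171, both above shHIF1A. NDUFA4L2 was at 12.2 to 17.3 RPKM there, against 14.96 to 25.4 in shHIF1A. NDUFA4 did not follow: it was at 86.8, 68.1 and 71.9 RPKM in pGIPZ, 84.5, 84.1 and 70.0 in shHIF1A, and 62.2, 48.9 and 52.6 in shFOXA1. It was lower in shFOXA1 than in pGIPZ by -0.47 ± 0.16 (adjusted p = 0.0425), a call lost with the length trend described next removed (adjusted p = 0.0632).

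**Figure D1:**
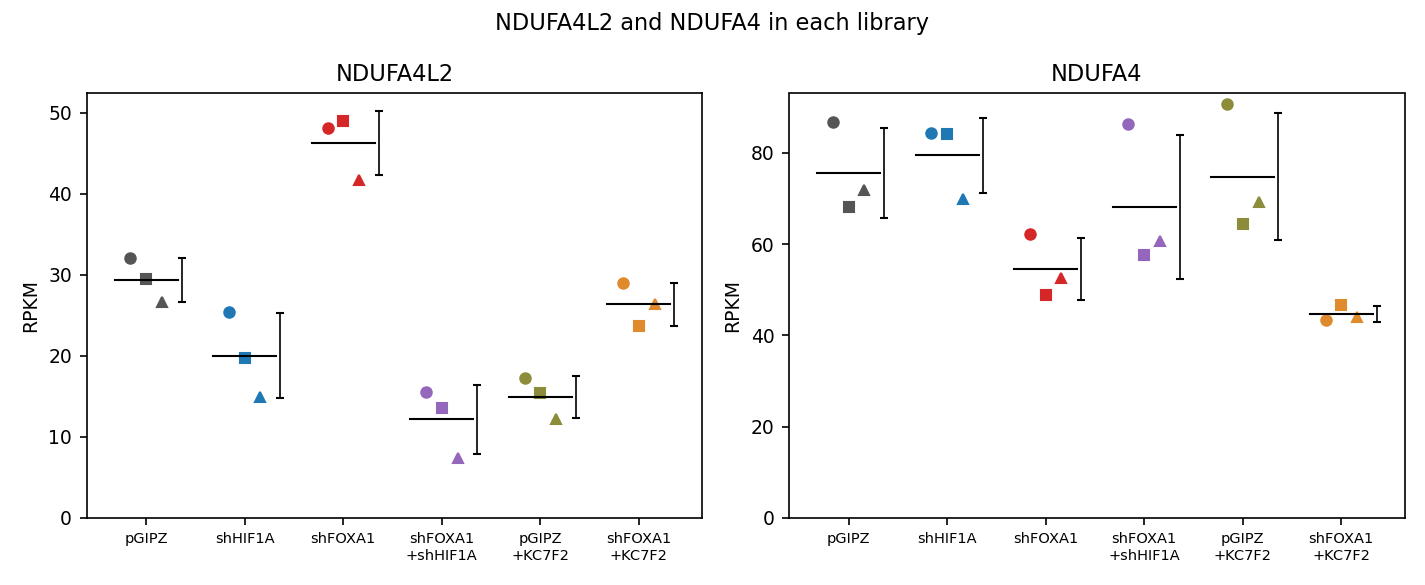
RPKM (linear axis) of NDUFA4L2 and NDUFA4 in the 18 libraries of 6 groups; circles, squares and triangles are replicates 1, 2 and 3, the horizontal line is the group mean and the bar beside it ± SD (n = 3). NDUFA4L2 lies between 41.7 and 48.9 in shFOXA1 and between 7.39 and 15.5 with both shRNAs, while NDUFA4 lies between 48.9 and 62.2 in shFOXA1.

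Most members, NDUFA4L2 (1177 nt) among them, have short transcripts, which matters for every comparison. Longer ones include NDUFA9 (4502 nt), NDUFV3 (3125 nt), SDHA (2107 nt) and ATP5B (1839 nt). The median member length was 763.5 nt against 2512 nt for coding genes, and 67 of 82 members fell among the shortest 25% of coding genes, up to 1656 nt. In each library, the median deviation of short genes from their own means was set against that of the longest 25%, from 3898 nt. Short genes stood 0.57 (log2) above long genes in pGIPZ 1, 0.49 in pGIPZ+KC7F2 1 and 0.39 in pGIPZ+KC7F2 3, against -0.22 to 0.11 in the other 15 libraries. The members moved with them: their median deviation was 0.63, 0.46 and 0.45 in those 3 libraries and -0.38 to 0.08 in the others. In these 3 libraries 80, 81 and 80 of 82 members were above their own mean. All 3 belong to control-vector groups. Every comparison was therefore made as deposited, with each library's trend on gene length removed, and without the 3 libraries. Removing the trend brought the 3 medians to 0.28, 0.12 and 0.20.

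**Figure D2:**
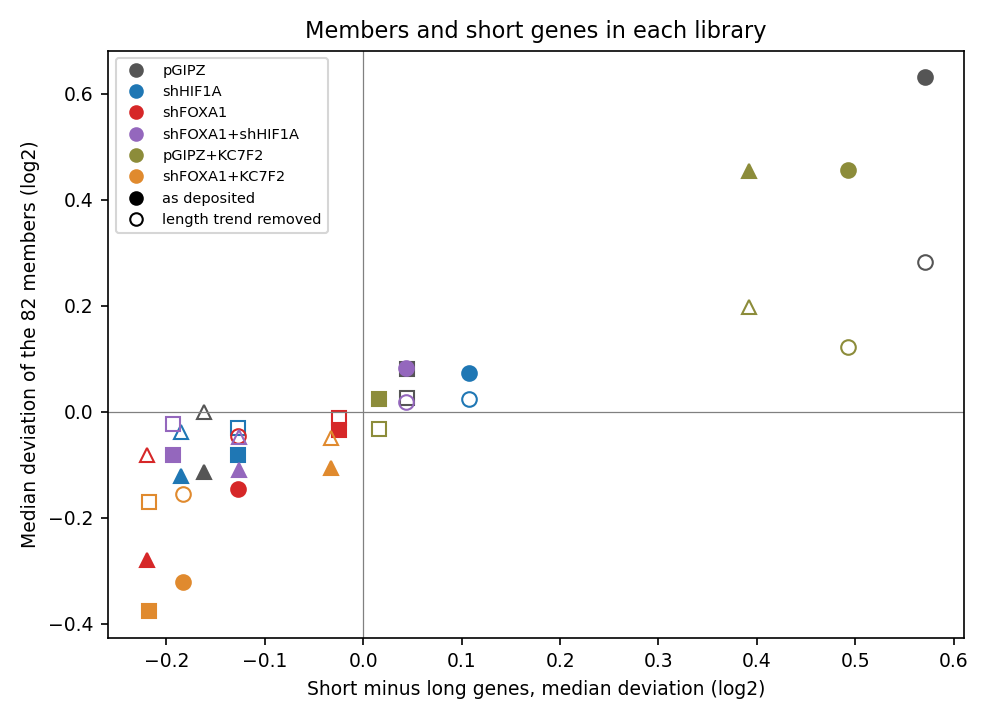
For each of the 18 libraries, the median deviation of the 82 members from their own means (log2, vertical) against the median deviation of short minus long coding genes (log2, horizontal); filled symbols are deposited values, open symbols have the length trend removed from the vertical value, and circles, squares and triangles are replicates 1, 2 and 3. 3 libraries, of pGIPZ and pGIPZ+KC7F2, stand apart at 0.39 to 0.57 on the horizontal axis, and their members fall from 0.45 to 0.63 to 0.12 to 0.28 with the trend removed.

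FOXA1 knockdown lowered 13 members and raised NDUFA4L2. Across all genes 14.6% were called lower and 9.52% higher, so the members' share of lower calls (15.9%) was near the background. The median member difference was -0.32 against -0.09 for all genes, with 79 of 82 members and 60.7% of all genes below 0. It was -0.14 with the length trend removed, where 1 member was called higher and 6 lower (12.5% and 12.7% of all genes). Without the 3 libraries it was -0.13, with 0 members higher and 5 lower (7.77% and 10.4% of all genes). Without pGIPZ 1 alone 4 members were called, without pGIPZ 3 alone 38, and without shFOXA1 2 or shFOXA1 3 the count was 8 and 4.

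4 members fell under FOXA1 knockdown in all 3 fits: NDUFV2 and NDUFV3 of the NADH-binding arm of complex I, COX5A of complex IV and ATP5B (4.88% of members, against 8.59% of all genes). ATP5B was at 666, 602 and 547 RPKM in pGIPZ and 476, 441 and 449 in shFOXA1, without overlap, a difference of -0.40 ± 0.10 (adjusted p = 0.00783). COX5A was at 302, 228 and 215 RPKM in pGIPZ and 173, 176 and 143 in shFOXA1 (-0.59 ± 0.14, adjusted p = 0.00646). For NDUFV3 the values were 22.5, 27.0 and 22.4 against 20.6, 19.5 and 16.3 RPKM, so the groups lay close, and the difference was -0.34 ± 0.11 (adjusted p = 0.0290). NDUFV2 was at 249, 134 and 114 RPKM in pGIPZ, with pGIPZ 1 far above the others, and at 99.2, 93.0 and 78.2 in shFOXA1. Its difference was -0.80 ± 0.23 as deposited (adjusted p = 0.0203) and -0.46 without the 3 libraries (adjusted p = 0.0294). Calls that did not hold in all 3 fits were NDUFB4, NDUFS8, NDUFB10 and NDUFS1 of complex I, NDUFA4, SDHD, UQCR10, ATP5J and ATP5F1. Over all 17 alternatives, however, the NDUFB4 call held in 16, COX5A in 16, ATP5B in 15, NDUFV2 in 14 and NDUFV3 in 12.

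In KC7F2-treated cells FOXA1 knockdown lowered 49 members (59.8%, against 24.1% of all genes) and raised NDUFA4L2 (8.88% of all genes). By complex, 19 of 38 members of complex I, 2 of 4 of II, 6 of 9 of III, 9 of 12 of IV and 12 of 15 of V were lower. The lower calls numbered 21 with the length trend removed (25.6%, against 14.6%) and 8 without the 3 libraries (9.76%, against 9.46%), a fit that leaves 1 library in pGIPZ+KC7F2, assumed to vary like the other groups. The higher calls were 1 and 0, against 13.8% and 4.43% of all genes. Leaving out pGIPZ+KC7F2 1 alone gave 26 calls in all, pGIPZ+KC7F2 3 alone 30 and shFOXA1+KC7F2 2 alone 30. The median difference was -0.58 as deposited, -0.21 with the trend removed and -0.30 without the 3 libraries. In the same order 81, 72 and 70 of 82 members were below 0, against 64.4%, 49.5% and 64.4% of all genes. Scaling by median ratios moved the median of all genes from -0.15 to 0.00 and that of the members to -0.40.

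7 members were lower in all 3 fits (8.54%, against 7.93% of all genes): NDUFV2, NDUFV3, NDUFS8, NDUFA9 and NDUFA7 of complex I, ATP5B, and ATP5G3, 1 of 3 genes for the c ring of complex V. ATP5B was at 636, 592 and 613 RPKM in pGIPZ+KC7F2 and 398, 387 and 399 in shFOXA1+KC7F2, groups far apart, with a difference of -0.64 ± 0.10 (adjusted p = 0.000198). NDUFA9, a subunit at the quinone-binding arm, was at 48.7, 50.4 and 53.4 against 35.0, 32.6 and 33.0 RPKM (-0.59 ± 0.12, adjusted p = 0.00157). NDUFV3 was at 28.6, 25.3 and 25.2 against 16.4, 15.9 and 17.6 RPKM (-0.65 ± 0.11, adjusted p = 0.000282). In these 3 genes the library that remains from pGIPZ+KC7F2, replicate 2, lay well above shFOXA1+KC7F2. No member passed the test of whether KC7F2 altered the response to FOXA1 knockdown (limma, 1 member at an unadjusted p below 0.05; 0.0155% of all genes higher and 0.062% lower).

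In HIF1A-depleted cells FOXA1 knockdown lowered ATP5B and NDUFA4L2 and raised the antisense RNA NDUFV2-AS1 (9.25% of all genes lower, 5.27% higher). ATP5B was at 669, 666 and 625 RPKM in shHIF1A and 563, 455 and 484 with both shRNAs, a difference of -0.39 ± 0.10 (adjusted p = 0.0158). ATP5B and NDUFA4L2 passed in all 3 fits (7.84% of all genes lower), and NDUFV2-AS1 did not without the 3 libraries (adjusted p = 0.0587). None of the 3 libraries is in these groups, so the fit without them kept these differences and changed only the estimate of spread. Leaving out single libraries of these groups kept the ATP5B call in 2 of 6 fits and the NDUFA4L2 call in 3 of 6. Quantile normalisation gave 3 members higher and 2 lower, and no member was called in limma without shHIF1A 1 or without shHIF1A 2. ATP5B was thus lower with the FOXA1 shRNA in each of the 3 backgrounds, which share no library between them. In each background the libraries with the FOXA1 shRNA were also the shallower ones, and the part of depth was not tested.

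**Figure D3:**
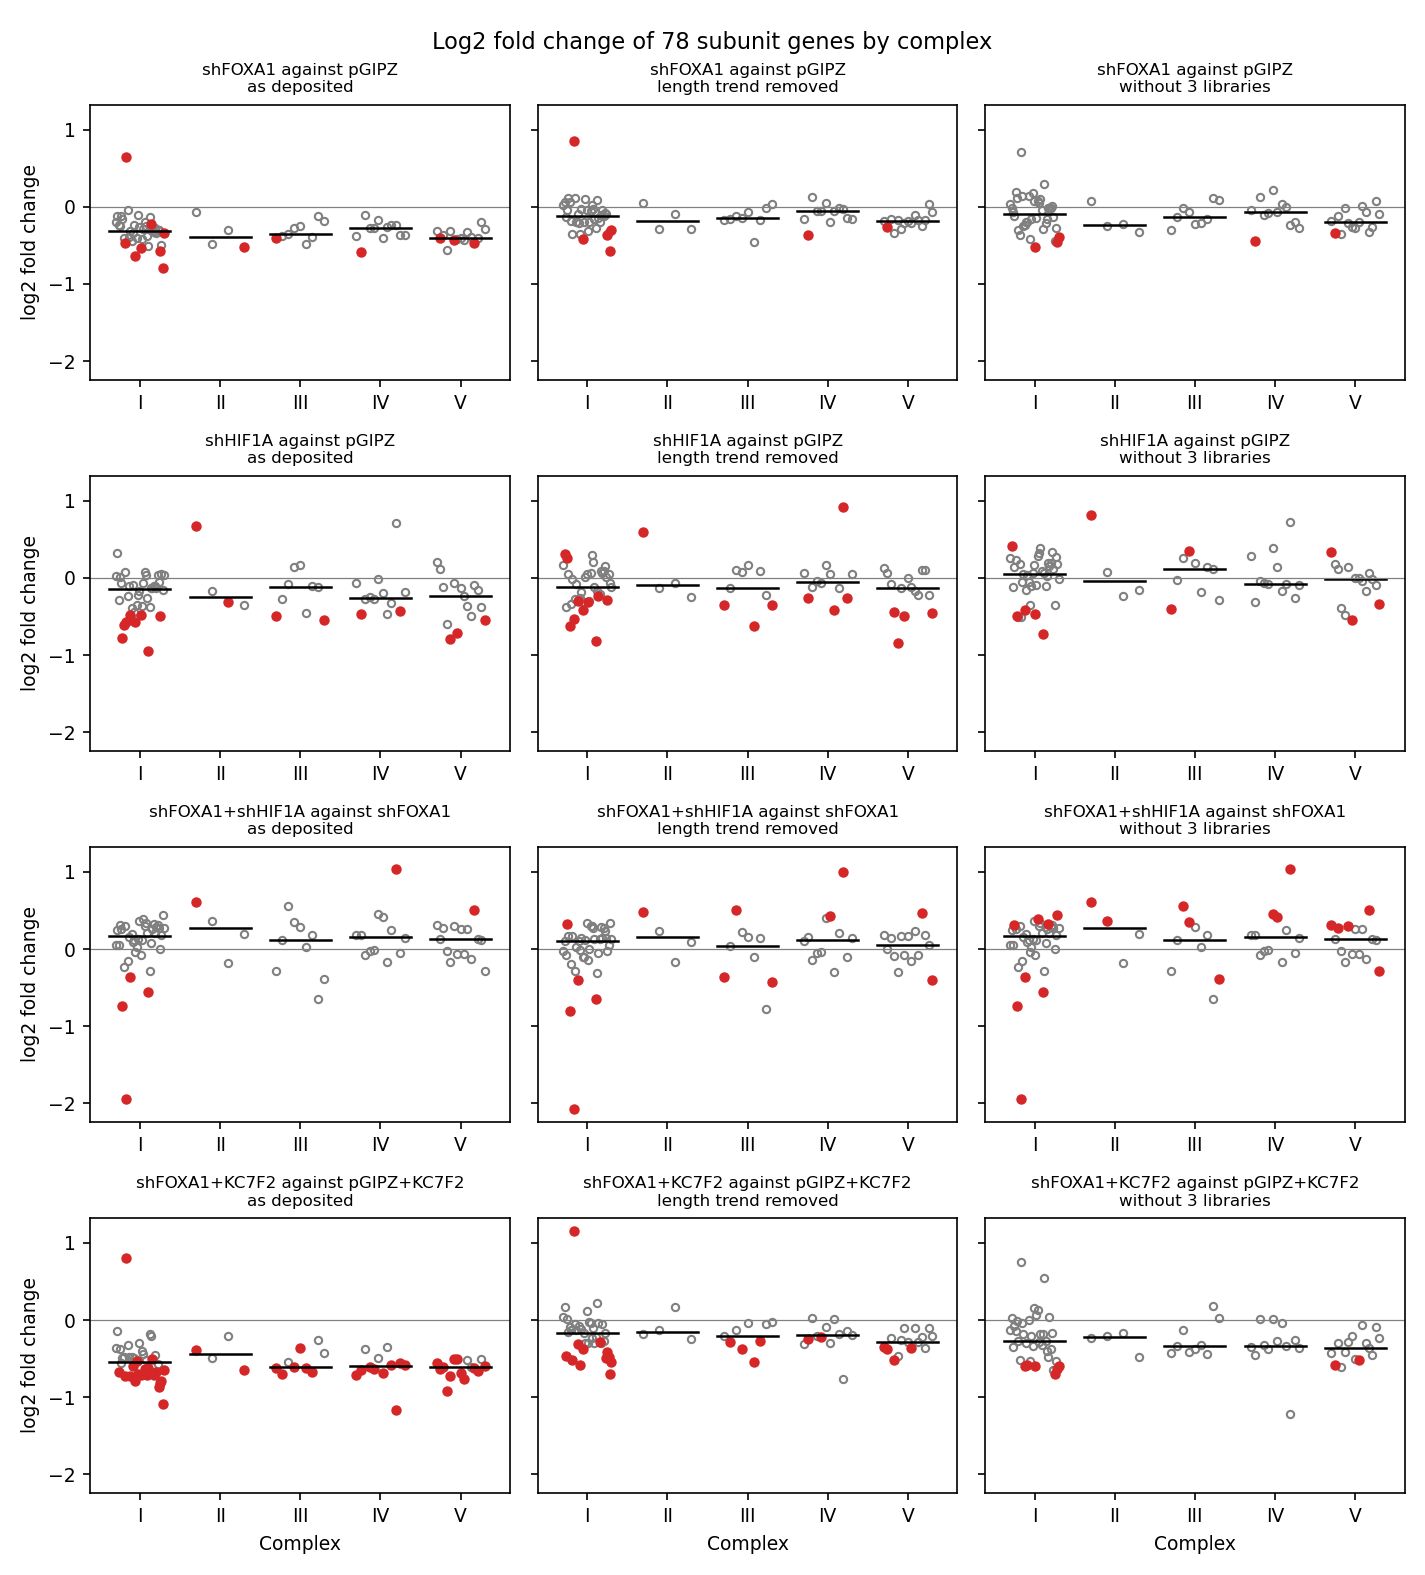
Log2 fold change (vertical) of the 78 subunit genes grouped by complex I to V (horizontal) in 4 comparisons (lines of panels), as deposited, with the length trend removed and without the 3 libraries (columns of panels); filled red points have an adjusted p below 0.05 and black lines are medians. FOXA1 knockdown in KC7F2-treated cells has 48 subunit genes called lower as deposited and fewer in the other columns, while NDUFA4L2 lies at -1.95 and SDHA at 0.61 when HIF1A knockdown is added to shFOXA1.

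HIF1A knockdown raised SDHA and lowered 17 members (1.22% and 20.7% of members, against 25.9% and 16.1% of all genes). The median member difference was -0.21 against 0.07 for all genes, and -0.01 without the 3 libraries, where 4 members were higher and 7 lower (25.0% and 13.4% of all genes). It was -0.12 with the length trend removed, where 4 were higher and 18 lower (23.2% and 22.1% of all genes). Leaving out pGIPZ 1 alone gave 9 calls and shHIF1A 2 alone 10. Complex I held 8 of the lower calls, complex II 1, III 2, IV 2 and V 3, with NDUFV2-AS1 besides. SDHA, and NDUFA2, NDUFA7, NDUFB4, NDUFC1, UQCR10, ATP5G1 and ATP5O, passed in all 3 fits (20.3% of all genes higher and 12.3% lower).

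Added to FOXA1 knockdown, the HIF1A shRNA raised 4 members (SDHA, ATP5J, COX7B2 and ATP5SL) and lowered 4 (NDUFA4L2, NDUFC1, NDUFA2 and NDUFA7), against 24.0% and 13.5% of all genes. The members' shares (4.88% each way) were below those of all genes. With the length trend removed 6 were higher and 7 lower (19.5% and 20.5% of all genes). Without the 3 libraries, none of which is in these groups, 15 were higher and 6 lower (25.8% and 14.5% of all genes). Median-ratio scaling, which moved the median of all genes from 0.10 to -0.01, gave 3 and 7, and quantile normalisation 12 and 8. The count fell to 5 without shFOXA1 1, 3 without shFOXA1 2, 4 without shFOXA1+shHIF1A 1 and 3 without shFOXA1+shHIF1A 3. All but ATP5SL passed in all 3 fits (19.0% of all genes higher and 13.1% lower). COX7B2 rests on about 1.10 to 22.7 reads per library.

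SDHA, NDUFC1, NDUFA2 and NDUFA7 passed in all 3 fits of both HIF1A knockdown comparisons, which share no library. That is 1 member higher (1.22%, against 11.99% of all genes) and 3 lower (3.66%, against 7.62%); both shares lie under those of genes at large. Of the 8 members called without the FOXA1 shRNA these are 4, and of the 7 called with it they are also 4.

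SDHA was at 36.0, 31.9 and 22.3 RPKM in pGIPZ, 51.4, 48.8 and 42.5 in shHIF1A, 27.0, 30.3 and 27.4 in shFOXA1 and 44.0, 44.6 and 41.4 with both shRNAs. Every library with the HIF1A shRNA was above every library without it. The differences were 0.68 ± 0.14 (adjusted p = 0.00104) and 0.61 ± 0.14 (adjusted p = 0.00264), and both held under all 17 alternatives. SDHB was at 40.6 to 68.9 RPKM in pGIPZ and 40.6 to 50.3 in shHIF1A (-0.17 ± 0.19, adjusted p = 0.501), and at 29.1 to 41.1 in shFOXA1 and 40.3 to 53.2 with both shRNAs (0.36 ± 0.19, adjusted p = 0.143). The second of these SDHB differences passed the test without the 3 libraries (adjusted p = 0.0436). SDHD was at 20.2 to 30.4 RPKM in pGIPZ and, without overlap, 16.6 to 19.9 in shHIF1A (-0.35 ± 0.16, adjusted p = 0.0864), and at 14.2 to 17.4 in shFOXA1 and 16.2 to 22.7 with both shRNAs (0.19 ± 0.16, adjusted p = 0.369). SDHC, a membrane anchor, was lower in shHIF1A by -0.32 ± 0.11 (adjusted p = 0.0289), a call lost with the trend removed (adjusted p = 0.732), and with both shRNAs its difference from shFOXA1 was -0.19 ± 0.11 (adjusted p = 0.198). With KC7F2, SDHA was at 34.5, 30.2 and 37.1 RPKM in pGIPZ cells and 23.9, 25.5 and 28.0 in shFOXA1 cells, and neither difference passed the test (0.20 ± 0.14, adjusted p = 0.625; -0.13 ± 0.14, adjusted p = 0.733).

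NDUFC1, an accessory subunit of the membrane arm of complex I, was at 60.1, 40.5 and 35.8 RPKM in pGIPZ and 23.9, 22.7 and 21.7 in shHIF1A, without overlap (-0.95 ± 0.19, adjusted p = 0.000848). In shFOXA1 it was at 35.9, 31.6 and 26.5 RPKM, and with both shRNAs at 22.6, 19.0 and 21.3 (-0.56 ± 0.19, adjusted p = 0.0300). The 6 libraries with the HIF1A shRNA were the 6 lowest of the 18. NDUFA2, an accessory subunit near the NADH-binding arm, was at 160, 94.8 and 84.9 RPKM in pGIPZ and 77.4, 59.3 and 55.7 in shHIF1A (-0.78 ± 0.23, adjusted p = 0.0142). Its values were 107, 108 and 79.2 RPKM in shFOXA1 and 57.7, 56.7 and 59.7 with both shRNAs (-0.74 ± 0.23, adjusted p = 0.0206). Neither pair of groups overlapped.

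NDUFA7, another accessory subunit of complex I, was at 152, 133 and 131 RPKM in pGIPZ and 112, 95.0 and 90.2 in shHIF1A (-0.49 ± 0.13, adjusted p = 0.00674). It was at 124, 122 and 91.5 RPKM in shFOXA1 and 86.1, 88.4 and 85.6 with both shRNAs (-0.36 ± 0.13, adjusted p = 0.0377), where the lowest shFOXA1 library lay just above the others. The calls with the FOXA1 shRNA held in 12 of 17 alternatives for NDUFC1, 13 for NDUFA2 and 10 for NDUFA7. With KC7F2 in place of the shRNA, none of the 3 passed in either background: the differences in pGIPZ cells were -0.06 ± 0.19 for NDUFC1, 0.12 ± 0.23 for NDUFA2 and 0.08 ± 0.13 for NDUFA7. NDUFA4L2 was the single member called with KC7F2 in pGIPZ cells (0.992% of all genes lower, 1.05% higher). None was called in shFOXA1 cells (limma, 3 members at an unadjusted p below 0.05; 1.71% of all genes higher and 2.37% lower).

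**Figure D4:**
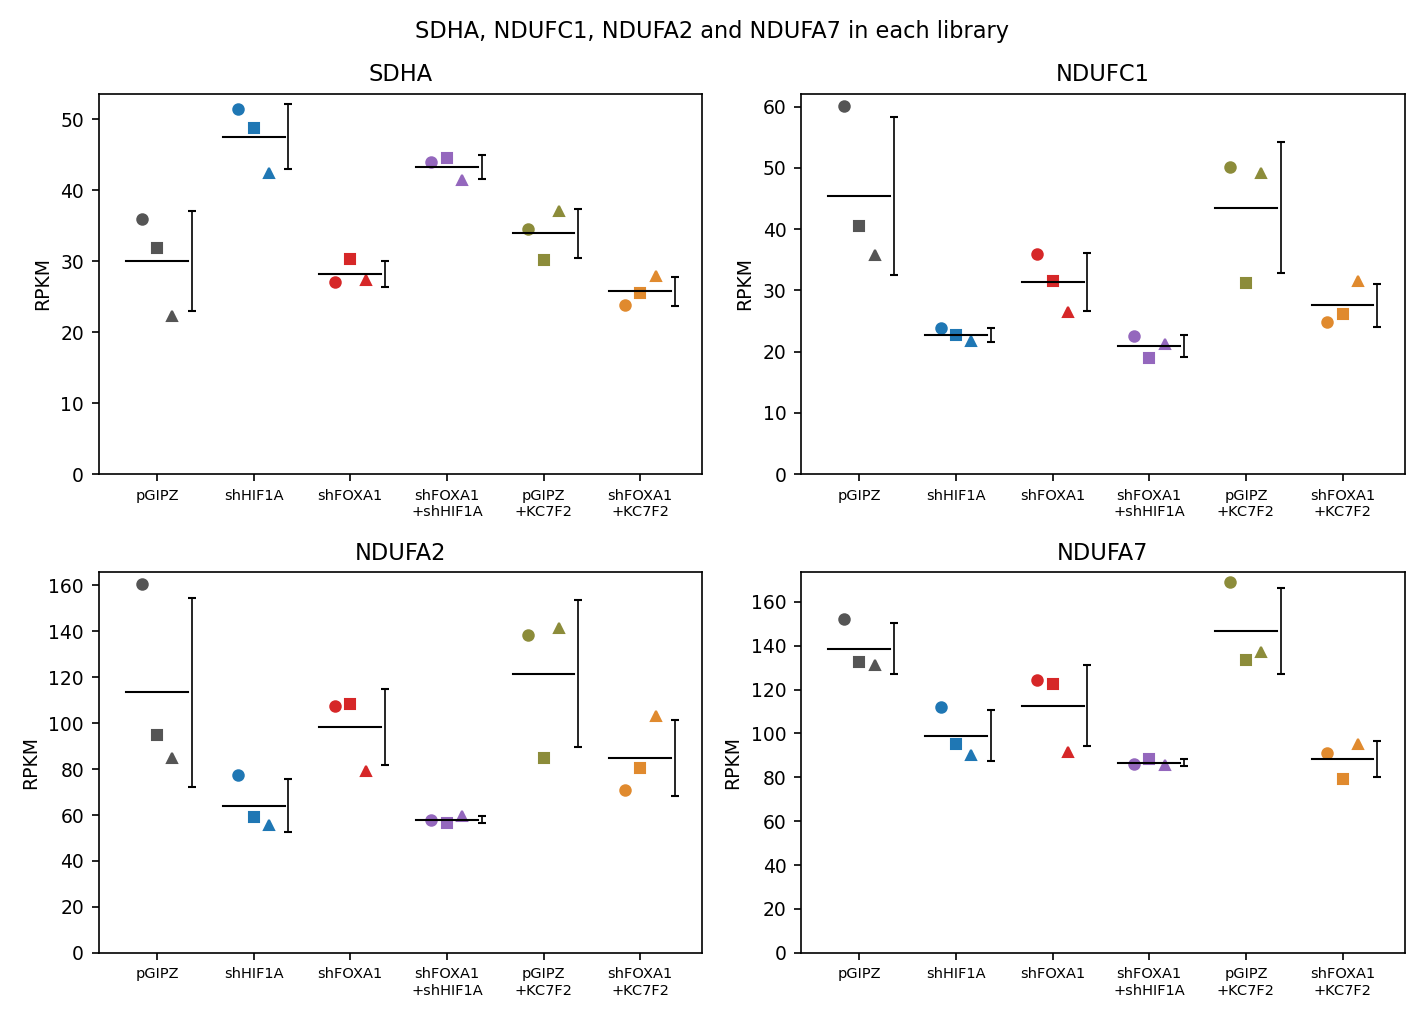
RPKM (linear axes) of SDHA, NDUFC1, NDUFA2 and NDUFA7 in the 18 libraries of 6 groups; circles, squares and triangles are replicates 1, 2 and 3, the horizontal line is the group mean and the bar beside it ± SD (n = 3). SDHA lies at 41.4 to 51.4 in the 6 libraries with the HIF1A shRNA and at 22.3 to 37.1 in the other 12, and NDUFC1 at 19.0 to 23.9 and 24.9 to 60.1.

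The proteins that assemble the chain were described from a list of 47 assembly factors, of which 46 were tested. FOXA1 knockdown lowered 6 and raised 0 of them (14.6% of all genes lower and 9.52% higher). With the length trend removed it lowered 5 and raised 1 (12.7% and 12.5% of all genes). Differences of single genes outside the members are given as deposited only. NDUFAF6, needed to build complex I, was at 14.9, 9.67 and 10.3 RPKM in pGIPZ and 4.61, 5.36 and 5.36 in shFOXA1 (-1.09 ± 0.17, adjusted p = 0.000135). NDUFAF4, also of complex I, was at 8.40, 6.05 and 6.55 against 4.04, 3.87 and 4.09 RPKM (-0.72 ± 0.16, adjusted p = 0.00331). Both were at 7.89 to 11.9 RPKM with both shRNAs. Both passed the interaction test (1.17 ± 0.24, adjusted p = 0.00528; 1.01 ± 0.23, adjusted p = 0.0115), in the opposite direction from NDUFA4L2. FOXA1 itself was depleted less with both shRNAs, at 59.3 to 70.7 RPKM against 32.4 to 35.1 in shFOXA1. The part of that weaker depletion in the higher levels and interactions of NDUFAF6 and NDUFAF4 was not tested.

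HIF1A knockdown raised 2 and lowered 5 of the 46 assembly factors (25.9% of all genes higher and 16.1% lower), or 3 and 10 with the length trend removed (23.2% and 22.1% of all genes). Added to FOXA1 knockdown it raised 10 and lowered 3 (24.0% and 13.5% of all genes). ATPAF1, which assembles the catalytic head of complex V, rose from 48.7, 54.2 and 48.2 RPKM in shFOXA1 to 99.6, 86.7 and 89.1 with both shRNAs (0.86 ± 0.13, adjusted p = 8e-05). LRPPRC, which keeps mitochondrial transcripts stable, fell with the HIF1A shRNA in both backgrounds, by 0.42 and 0.46 on the log2 scale (adjusted p = 0.00133 and 0.000835). In KC7F2-treated cells FOXA1 knockdown lowered 16 of the 46 (24.1% of all genes), or 8 with the length trend removed (14.6% of all genes), and KC7F2 itself changed 0 in either background.

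Of 16 regulators of respiratory genes 15 were tested. FOXA1 knockdown lowered 2 and raised 0 of them (14.6% of all genes lower and 9.52% higher). With the length trend removed it lowered 3 and raised 1 (12.7% and 12.5% of all genes). The 2 called lower as deposited were TFAM and TFB2M, factors in the transcription of mitochondrial DNA (-0.50 ± 0.13, adjusted p = 0.00957, and -0.66 ± 0.19, adjusted p = 0.0184, in limma). HIF1A knockdown raised 1 of the 15, GABPB1, and lowered 5 (25.9% of all genes higher and 16.1% lower). The 5 were TFB1M, MYC, TFAM, GABPA and PPRC1. GABPA was at 2.07 to 2.78 RPKM in pGIPZ and 1.34 to 1.82 in shHIF1A. It was at 1.93 to 3.39 RPKM in shFOXA1 and 1.41 to 2.28 with both shRNAs, a difference that was not called. GABPB1, the partner of GABPA at the ETS core, was at 5.96, 5.08 and 5.08 RPKM in pGIPZ and 7.71, 7.56 and 7.34 in shHIF1A. It was at 4.42, 4.57 and 4.50 RPKM in shFOXA1 and 9.69, 9.79 and 10.1 with both shRNAs, and the groups did not overlap (0.46 ± 0.09, adjusted p = 0.000555; 1.05 ± 0.09, adjusted p = 1.44e-07). Of 6 subunits and carriers outside the name rule, CYCS, the electron carrier cytochrome c, fell with FOXA1 knockdown (-0.53 ± 0.16, adjusted p = 0.0228; 14.6% of all genes lower). ATPIF1, the inhibitor of complex V, rose when HIF1A knockdown was added to FOXA1 knockdown (0.56 ± 0.21, adjusted p = 0.0418; 24.0% of all genes higher). HIF1A knockdown alone lowered C14orf2 and USMG5 (16.1% of all genes lower). With the length trend removed it lowered 3 of the 6 and raised 1 (22.1% and 23.2% of all genes). In KC7F2-treated cells FOXA1 knockdown lowered 4 of the 6, CYCS, CYC1, USMG5 and C14orf2 (24.1% of all genes). With the length trend removed it lowered 1 (14.6% of all genes). Subunits encoded in mitochondrial DNA were not analysed here.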

How the data were processed

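The authors deposited RPKM values for 18 libraries, made from total RNA with a NEBNext Ultra kit per the labels' protocols, and the submitters' processing notes name STAR and hg38. Not given in the sources used here: counting program, annotation, strand. Of 26475 lines, 32 without values were left out. Depth was recovered from the spacing of low values of 2356 genes of up to 200 nt (74.8 to 85.3% of low values whole within 2%). Values were analysed as log2(RPKM + 0.5), so fold changes of low genes are understated, for 12900 genes. limma 3.58.1 in R 4.3.3 fitted 6 group means with 12 residual degrees of freedom, eBayes with an intensity trend, two-sided. Benjamini-Hochberg adjustment was made per contrast (9 in all), with calls below 0.05. The contrasts share libraries. The length trend was removed by lowess with a span of 0.3 on the median transcript length of GENCODE 29, known for 12569 genes. Named genes were up to 4 per complex and contrast by adjusted p, the highest and lowest per complex, isoform pairs, and FOXA1, HIF1A, LDHA and PDK1; of members whose call did not hold in all 3 fits some are named without values. Promoters came from RefSeq; the NRF1 consensus replaced a looser form searched first. The members, lists and tests were chosen with earlier results of these data known. The fit was tested on simulated data. Other settings are given with their effects below. Python 3.11.15 with pandas 2.3.3 and matplotlib 3.10.9 was used for tables and figures.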

Additional observations from a re-analysis of the deposited data

Results flagged for a closer look

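The FOXA1 by HIF1A interaction of NDUFA4L2 was -1.38 (log2): FOXA1 knockdown raised the gene in cells with the control vector and lowered it in cells with the HIF1A shRNA, and the difference between these 2 effects passed its own limma test. Leaving out single libraries kept the call of the rise in 0 of 6 fits and that of the fall in 3 of 6. FOXA1 RNA was depleted less in cells with both shRNAs, and the part of that weaker depletion in the interaction was not tested.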

How the results depend on the processing

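Counts of members called moved by over 1.5 times as follows. FOXA1 knockdown against pGIPZ (14): no filter 8, median-ratio scaling 8, quantile normalisation 7, only the groups compared 2, without the 3 libraries 5, length trend removed 7. HIF1A knockdown (18): only the groups compared 7, without the 3 libraries 11. KC7F2 (1): 0 with no filter, only the groups compared or without the 3 libraries. HIF1A added to FOXA1 knockdown (8): no filter 5, quantile 20, only the groups compared 15, without the 3 libraries 21, trend removed 13. KC7F2 added to FOXA1 knockdown (0): 1 with a pseudocount of 1, at least 5 RPKM, median-ratio scaling, only the groups compared or without the 3 libraries, 2 with quantile normalisation and 3 with the trend removed. FOXA1 knockdown in shHIF1A cells (3): 0 with no filter or only the groups compared, 5 with quantile normalisation and 5 with the trend removed. FOXA1 knockdown with KC7F2 (50): median-ratio 33, quantile 26, without the 3 libraries 8, trend removed 22. FOXA1 by HIF1A interaction (1): median-ratio 2, quantile 4, trend removed 3. The cause of these shifts was not tested. No value changed sign of a call.

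Leaving out each library in turn gave 4 to 38, 9 to 26, 0 to 4, 3 to 7, 0 to 0, 0 to 2, 26 to 65, 1 to 5 and, for the FOXA1 by KC7F2 interaction, 0 to 0 members, in the same order. The highest counts came without pGIPZ 3 for FOXA1 knockdown and without pGIPZ+KC7F2 2 for FOXA1 knockdown with KC7F2.

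Same-numbered libraries did not deviate together (mean correlations of 0.04, 0.02 and -0.004), so the numbers were not taken as a pairing. With a replicate block the counts were 23, 19, 1, 10, 1, 2, 52, 4 and 0 in the same order.

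Of 96 results on single members, 39 lost their call with the length trend removed and 64 without the 3 libraries. Low members are limited by depth, COX7B2 most of all.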
